A study of Homo sapiens with 6 samples.

Results

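The genes described here are MAT2A and 8 other genes of the methionine cycle and its direct regulation, MAT2B, METTL16, AHCY, AHCYL1, AHCYL2, MTR, MTRR and CBS, which make 9 of the 58884 genes listed in the data. MAT2A was chosen by its rise after CIRBP knockdown in these same libraries, so its difference between the groups is given below as a description and with no test. The other 8 genes were listed for their roles. The RNA-seq libraries were made from immortalized ventricular cardiomyocytes of human origin. Of these, 3 came from cells given a negative control siRNA (NC) and 3 from cells in which CIRBP, the cold-inducible RNA binding protein, was targeted by siRNA (SiCIRBP). The labels name the line as T0519, whereas the study's text names AC16, another immortalized human ventricular cardiomyocyte line, for its transcriptomic comparison, and no drug treatment is given for these cells. The study compared NC_2 and NC_3 with SiCIRBP_1 and SiCIRBP_3 and left out NC_1 and SiCIRBP_2, which it found the most discrepant of their triplicates. The fit over those 4 libraries is given first, and for the 9 genes and CIRBP that over all 6 beside it.

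The methionine cycle turns the essential amino acid methionine into S-adenosylmethionine (SAM), the methyl donor of most methyltransferases. The methylation reactions leave S-adenosylhomocysteine, which is split into adenosine and homocysteine. Homocysteine is either methylated back to methionine, with a methyl group from folate, or drawn off towards cysteine and glutathione by transsulfuration. MAT2A is the catalytic subunit of the SAM synthetase used outside the liver, and its mRNA is itself subject to control by SAM. METTL16, an RNA methyltransferase, methylates hairpins in the 3′ untranslated region (3′ UTR) of the MAT2A mRNA, and its longer stay on these hairpins when SAM is scarce is known to promote splicing of a retained intron of the MAT2A transcript.

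The sites of these hairpins are shown first, because they set MAT2A apart in sequence from the rest of the cycle. The MAT2A gene lies on the plus strand of chr2:85539165-85545280 (GRCh38, GENCODE 29). Its main coding transcript, MAT2A-201, has 2819 bases in 9 exons, of which 1508 bases are 3′ UTR. The 9-base words TACAGAGAA and TACAGAAAA, the form in which METTL16 hairpin loops are known to be methylated, were searched on the sense strand of the annotated transcripts. In MAT2A-201, 6 such words, numbered in order from the stop codon, were found in the part of the last exon that is 3′ UTR. Capitals mark the 9-base word, and each line gives it with 10 bases on either side.
MAT2A site 1: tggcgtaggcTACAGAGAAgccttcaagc
MAT2A site 2: tgtgatgtcaTACAGAGAAgtcacagggc
MAT2A site 3: ctggtgtagcTACAGAGAAaccagcttcc
MAT2A site 4: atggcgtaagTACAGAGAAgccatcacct
MAT2A site 5: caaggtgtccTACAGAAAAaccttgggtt
MAT2A site 6: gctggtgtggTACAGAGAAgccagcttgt

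Site 1, with its flanking bases, lies at chr2:85543802-85543830, and its word starts at base 40 after the stop codon. Site 2 is at chr2:85544589-85544617, with its word starting at base 827. Sites 3 and 4 are at chr2:85544774-85544802 and chr2:85544889-85544917. Sites 5 and 6 are at chr2:85545004-85545032 and chr2:85545112-85545140. Only site 5 carries TACAGAAAA. In each site, a run of flanking bases before the word is the reverse complement of a run after it. These runs have 4 bases in site 1, 6 bases in site 5 and 5 bases in the other sites. The run before the word adjoins it in site 1 only. How often such short runs flank other sequences was not counted. A match is a description of letters and not a measured structure or modification.

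**Figure D1:**
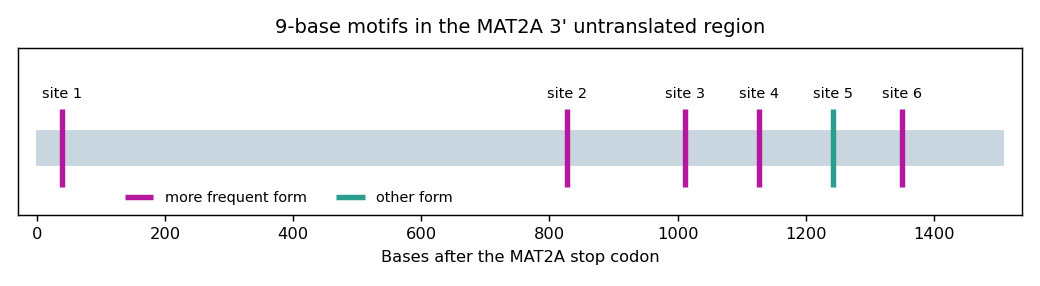
Positions of the 9-base words in the 3′ UTR of MAT2A-201, in bases after the stop codon (x axis). The grey bar is the 3′ UTR of 1508 bases and each vertical line is the start of the 9-base word of a site. Site 1 stands alone at 40 bases, while sites 2 to 6 lie between 827 and 1350 bases; the more frequent form is TACAGAGAA and the other form, in site 5, is TACAGAAAA.

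At least 1 of these words was present in the 3′ UTR of 829 of 19111 genes (4.34%), each taken by its longest coding transcript. Within the first 1508 bases of the 7452 3′ UTRs that are at least that long, 309 (4.15%) held one. MAT2A was the only gene with 6. Among the other 8 genes of the cycle, 1 of the 6 transcripts of AHCYL1 held a single word and no annotated transcript of MAT2B, METTL16, AHCY, AHCYL2, MTR, MTRR or CBS held any. Of the 6 annotated MAT2A transcripts, MAT2A-201 alone holds the words, and 3 others, of 583 to 1438 bases, are annotated as retained introns.

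The depth was similar among the libraries, with totals between 25726259 and 29919566 estimated counts. SiCIRBP_2 stood apart from all others, with correlations of log2(CPM + 1) over genes between 0.960 and 0.975. NC_2 and NC_3 correlated at 0.997 and SiCIRBP_1 and SiCIRBP_3 at 0.991, and NC_1 correlated with NC_2 and NC_3 at 0.994 and 0.993 and with SiCIRBP_1 at 0.991. Of 13 cardiomyocyte markers, GATA4, ACTN2 and NKX2-5 reached 1 TPM in every library and 9, among them TNNT2, MYH6 and MYH7, were below 1 TPM in every library, 4 of these at 0. Summed over the 13, the level was 72.7 to 89.6 TPM in NC and 41.0 to 61.1 TPM in SiCIRBP. Of 8 fibroblast markers, 7 reached 1 TPM throughout, with sums of 4104 to 4411 TPM in NC and 3968 to 5672 TPM in SiCIRBP. The part of these differences in the results below was not tested. In such bulk libraries, fewer cells expressing a gene and less RNA per cell cannot be told apart.

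CIRBP itself, the target, was measured at 86.4, 85.8 and 91.0 CPM in NC_1, NC_2 and NC_3. The values were 54.8, 24.3 and 46.3 CPM in SiCIRBP_1, SiCIRBP_2 and SiCIRBP_3, where CPM is the count scaled to equal library totals by the TMM method. The groups did not overlap, and CIRBP fell by 0.81 ± 0.11 (log2 fold change ± SE) over the 4 libraries with an adjusted p of 0.00828 (edgeR quasi-likelihood test). Over 6 libraries its log2 fold change was -1.07 ± 0.26 (adjusted p = 0.103). SiCIRBP_2 held the least CIRBP of the 6. In TPM, CIRBP was at 134.4, 133 and 149 in NC and at 62.1, 22.5 and 57.75 in SiCIRBP. The ratio of SiCIRBP to NC between the means of the 4 libraries was 0.425 in TPM and 0.572 in CPM.

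MAT2A was higher in every SiCIRBP library than in any NC library. It was measured at 200.2, 117 and 125 CPM in NC_1, NC_2 and NC_3, and at 275, 247 and 290 CPM in SiCIRBP_1, SiCIRBP_2 and SiCIRBP_3. NC_2 and NC_3 were close to each other, whereas NC_1 lay between the groups, 0.72 above the mean of NC_2 and NC_3 on the log2(CPM + 1) scale. SiCIRBP_2, which held the least CIRBP, had the lowest MAT2A of its group, 0.19 below the mean of SiCIRBP_1 and SiCIRBP_3. Over the 4 libraries the log2 fold change was 1.22 ± 0.08 (SE), a fold of 2.33. Over all 6 it was 0.88 ± 0.21, a fold of 1.84. Leaving out any of the 4 libraries gave log2 fold changes from 1.17 to 1.27, and leaving out any of the 6 gave 0.73 to 1.16, the highest without NC_1.

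The same order was present in TPM, in which counts are divided by an assigned transcript length. MAT2A was at 101.8, 63.1 and 69.0 TPM in NC_1, NC_2 and NC_3 and at 137, 107 and 141 TPM in SiCIRBP_1, SiCIRBP_2 and SiCIRBP_3. The ratio between the means of the 4 libraries was 2.10 in TPM. GGCX, a vitamin K-dependent carboxylase gene on the opposite strand, overlaps MAT2A by 558 bases and shares 11.6% of the 31-base words of the MAT2A transcripts. Whether the counting kept strands apart is not given in the sources used here, so reads from the overlap cannot be assigned with certainty. GGCX was at 47.8, 54.2 and 53.6 CPM in NC and at 53.8, 29.9 and 51.8 CPM in SiCIRBP, and its log2 fold change over the 4 libraries was -0.03 (adjusted p = 0.843, edgeR). In TPM it was lower in SiCIRBP, at 30.57, 36.69 and 36.25 in NC and 30.12, 20.04 and 28.52 in SiCIRBP. Its TPM ratio between the means of the 4 libraries was 0.804. AC026111.1, which shares 3.31% of the MAT2A words on the same strand, had at most 1 count in any library.

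**Figure D2:**
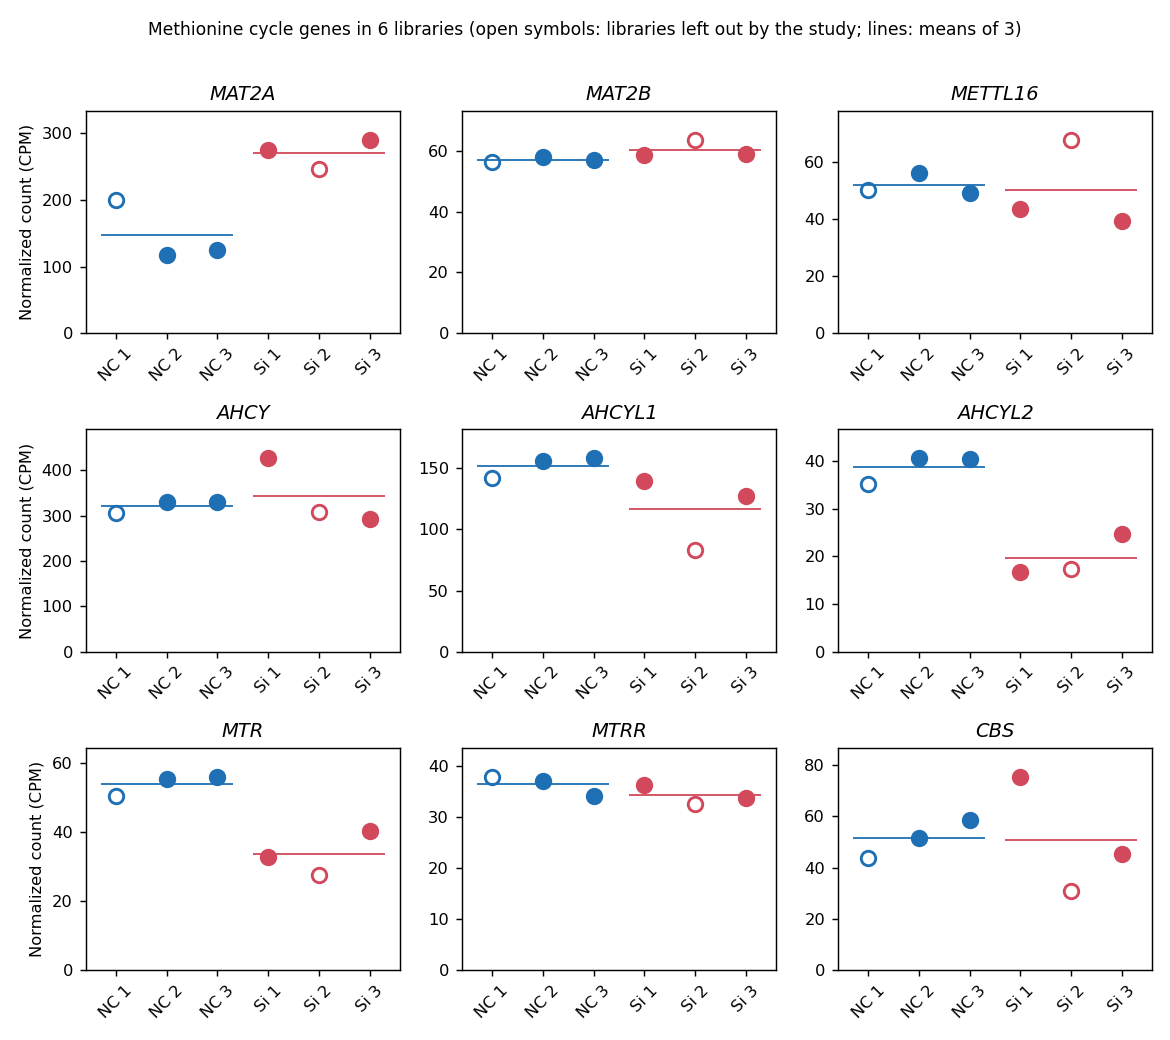
Normalized count (CPM, y axis from 0) of the 9 methionine cycle genes in each of the 6 libraries (x axis); blue points are NC, red points SiCIRBP (Si), open points the libraries the study left out, and horizontal lines the means of 3 libraries. MAT2A (247 to 290 against 117 to 200.2 CPM) and, by a small margin, MAT2B are higher in every SiCIRBP library than in any NC library. AHCYL1, AHCYL2 and MTR are lower in every SiCIRBP library, whereas METTL16, AHCY, MTRR and CBS overlap. Among all genes, 16.2% were higher and 16.6% lower without overlap.

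A longer or shorter transcript assigned to MAT2A was sought as a measure that the choice of MAT2A had not used. The estimated count divided by the TPM gives the length that the quantification assigned to a gene in a library, stated here relative to the median gene of that library. For MAT2A it was 1.245, 1.190 and 1.201 in NC_1, NC_2 and NC_3 and 1.218, 1.251 and 1.249 in SiCIRBP_1, SiCIRBP_2 and SiCIRBP_3. The groups overlapped, and the log2 difference over the 4 libraries was 0.05 ± 0.02 (SE, adjusted p = 0.548, limma). Of the 12153 genes tested for length, 0% passed (0 genes, smallest adjusted p 0.138), although 1596 were below 0.05 before adjustment. The length is an average over the transcripts of a gene, weighted by their estimated amounts, and does not report on intron retention directly.

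The partners of MAT2A showed smaller differences, none of which passed over the 4 libraries. MAT2B, the regulatory subunit of the SAM synthetase, was at 56.2, 58.1 and 56.8 CPM in NC and 58.6, 63.6 and 58.9 CPM in SiCIRBP. All 3 SiCIRBP libraries lay above all 3 NC libraries in CPM, by a mean of 0.08 on the log2(CPM + 1) scale (p = 0.1, exact permutation test, two-sided). With 3 libraries against 3, 0.1 is the smallest p this test can give. In TPM the MAT2B groups overlapped, at 40.4, 40.9 and 42.2 in NC and 39.3, 39.2 and 40.6 in SiCIRBP, and the mean was lower in SiCIRBP. The log2 fold change of MAT2B was 0.03 ± 0.09 (SE) over the 4 libraries (adjusted p = 0.808, edgeR) and 0.08 ± 0.11 over 6 (adjusted p = 0.652). The ratio of MAT2A to MAT2B in TPM was 2.52, 1.54 and 1.64 in NC_1, NC_2 and NC_3. The corresponding ratios in SiCIRBP_1, SiCIRBP_2 and SiCIRBP_3 were 3.48, 2.74 and 3.46, so that the transcripts of the catalytic subunit exceeded those of the regulatory subunit in every library and by more in SiCIRBP, a difference that the choice of MAT2A already contains.

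METTL16, the enzyme that acts on the sites shown above, was at 50.1, 56.1 and 49.1 CPM in NC_1, NC_2 and NC_3. In SiCIRBP_1, SiCIRBP_2 and SiCIRBP_3 it was at 43.4, 67.7 and 39.4 CPM, so that SiCIRBP_2 held the most METTL16 of the 6 libraries and the other SiCIRBP libraries the least. SiCIRBP_2 lay 0.70 above the mean of SiCIRBP_1 and SiCIRBP_3 on the log2(CPM + 1) scale. The log2 fold change was -0.35 ± 0.11 (SE) over the 4 libraries and did not pass (adjusted p = 0.0711, edgeR). Without the filter on low counts the adjusted p was 0.0277. Over 6 libraries the log2 fold change was -0.05 ± 0.21 (adjusted p = 0.905). The assigned length of METTL16 was 1.984, 1.729 and 1.862 times that of the median gene in NC and 1.584, 1.542 and 1.507 times in SiCIRBP. These groups did not overlap, which held in the same direction for 10.4% of the genes with a length in all 6 libraries. The log2 length difference of METTL16 was -0.22 ± 0.05 (SE) over the 4 libraries and did not pass (adjusted p = 0.325, limma).

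AHCYL2 and MTR fell over the 4 libraries, and they were the 2 of the 8 genes beside MAT2A that passed. Of all 15421 genes tested in that fit, 9.76% were lower and 9.62% higher in SiCIRBP with an adjusted p under 0.05, against 2 lower and 0 higher of these 8. AHCY, which encodes S-adenosylhomocysteine hydrolase, has AHCYL1 (IRBIT) and AHCYL2 as relatives that resemble it in sequence and are known for binding ion transporters and, for AHCYL1, the inositol trisphosphate receptor. AHCYL2 was at 35.0, 40.5 and 40.5 CPM in NC and at 16.6, 17.4 and 24.7 CPM in SiCIRBP. Every SiCIRBP library lay below every NC library, and SiCIRBP_3 was the nearest to NC. Its log2 fold change was -0.97 ± 0.18 (SE, adjusted p = 0.0183, edgeR), a fold of 0.510. Over 6 libraries it was -0.98 ± 0.18 and did not pass (adjusted p = 0.0869, edgeR).

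AHCYL1 was at 142, 156 and 158 CPM in NC and at 139, 83.6 and 128 CPM in SiCIRBP. The groups did not overlap, but SiCIRBP_1 was close to NC_1 and SiCIRBP_2 was far below the rest. The log2 fold change was -0.24 ± 0.08 (SE) over the 4 libraries (adjusted p = 0.0898, edgeR) and -0.38 ± 0.19 over 6 (adjusted p = 0.257), so AHCYL1 passed in neither. The TPM ratio of AHCYL1 to AHCYL2 was 4.71, 4.66 and 4.40 in NC_1, NC_2 and NC_3, and 9.90, 5.46 and 6.90 in SiCIRBP_1, SiCIRBP_2 and SiCIRBP_3.

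AHCY itself was at 305, 330.2 and 330.2 CPM in NC and 426, 308 and 293 CPM in SiCIRBP. SiCIRBP_1 was the highest and SiCIRBP_3 the lowest of the 6 libraries, 0.54 apart on the log2(CPM + 1) scale. The log2 fold change over the 4 libraries, 0.12 ± 0.16 (SE, adjusted p = 0.626, edgeR), was smaller than the spread within SiCIRBP. Over 6 libraries it was 0.09 ± 0.16 (adjusted p = 0.749). Leaving SiCIRBP_1 out of the 4 gave -0.18, and leaving out SiCIRBP_3 gave 0.36.

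MTR, the cobalamin-dependent methionine synthase that closes the cycle, was at 50.4, 55.3 and 55.9 CPM in NC. In SiCIRBP it was at 32.8, 27.7 and 40.3 CPM, below every NC library. Its log2 fold change was -0.61 ± 0.12 (SE, adjusted p = 0.0210, edgeR), a fold of 0.657, and over 6 libraries it was -0.68 ± 0.16 and did not pass (adjusted p = 0.0982, edgeR). MTRR, the reductase that restores oxidized MTR to activity, was at 37.9, 37.2 and 34.2 CPM in NC and 36.4, 32.6 and 33.8 CPM in SiCIRBP. The groups overlapped, and the log2 fold change was -0.02 ± 0.11 (SE, adjusted p = 0.897, edgeR) over the 4 libraries and -0.09 ± 0.12 over 6 (adjusted p = 0.668). The TPM ratio of MTR to MTRR was 0.375, 0.384 and 0.352 in NC and 0.183, 0.177 and 0.289 in SiCIRBP, lower in each SiCIRBP library than in any NC library. MTRR overlaps FASTKD3 by 9879 bases on the opposite strand, but only 1.05% of the MTRR transcript words are shared.

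Both calls depended on which libraries entered. NC_2 and NC_3 differed by less than counting error for both genes, with an SD of 0.0498% of the mean for AHCYL2, where counting error was 2.96%, and 0.794% for MTR, where it was 2.53%. Without NC_2 the adjusted p was 0.105 for AHCYL2 and 0.152 for MTR, and without NC_3 it was 0.135 and 0.2001, with log2 fold changes between -0.60 and -0.98. In the fit over 6 libraries, 0% of 15217 genes passed in edgeR (0 genes, smallest adjusted p 0.0853), although 3603 were below 0.05 before adjustment and DESeq2 called 1536. AHCYL2 and MTR were among these, at adjusted p = 0.00019 and 0.00579 in DESeq2. Leaving SiCIRBP_2 out of the 6 gave adjusted p = 0.0309 for AHCYL2 and 0.0375 for MTR in edgeR.

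CBS, the entry enzyme of transsulfuration, was at 43.9, 51.6 and 58.6 CPM in NC and 75.4, 31.1 and 45.4 CPM in SiCIRBP. SiCIRBP held both the highest and the lowest value of the 6 libraries, and the log2 fold change over the 4 libraries was 0.13 ± 0.22 (SE, adjusted p = 0.705, edgeR). Over 6 libraries it was on the other side of 0, at -0.02 ± 0.29 (adjusted p = 0.971). Leaving SiCIRBP_1 out of the 4 gave -0.29, and leaving out SiCIRBP_3 gave 0.45. CBS lies on the minus strand of chr21:43053191-43076943, and CBSL at chr21:6444869-6468040 is a near-identical copy in this build, so that 93.8% of the transcript words of CBSL occur in CBS. Counts of either are therefore uncertain. CBS took 44.7% to 51.2% of the CPM of the pair in each library. Summed, the pair was at 95.7, 106 and 123 CPM in NC and 151, 60.7 and 101 CPM in SiCIRBP, with a log2 fold change of 0.14 ± 0.18 (SE, adjusted p = 0.617, edgeR).

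**Figure D3:**
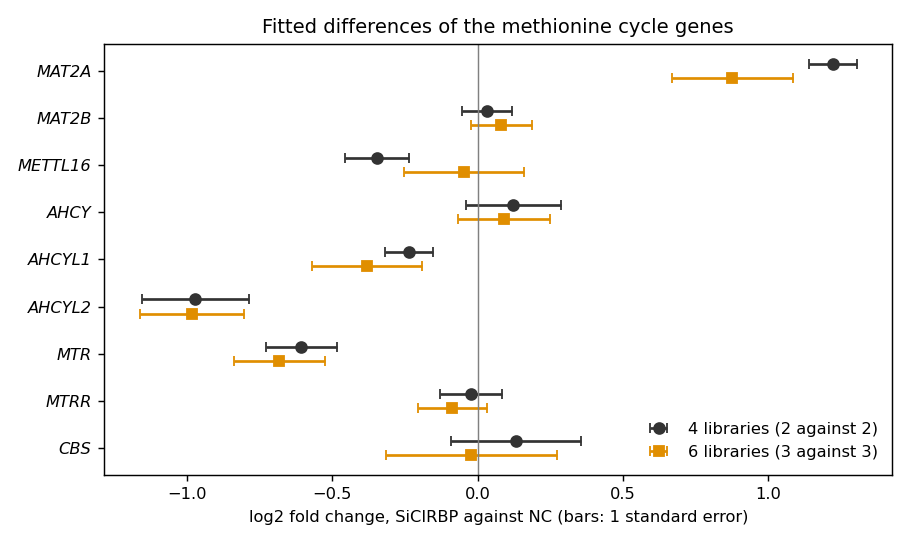
Fitted log2 fold change, SiCIRBP against NC (x axis), of the 9 genes, with bars of 1 standard error; dark circles are the fit over 4 libraries and orange squares that over 6. MAT2A is at 1.22 over 4 libraries and 0.88 over 6, AHCYL2 and MTR lie below 0 in both (-0.97 and -0.98, -0.61 and -0.68), and METTL16 moves from -0.35 to -0.05.

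Counted over all 6 libraries, AHCYL1, AHCYL2 and MTR had all their SiCIRBP values below their NC values in CPM, and MAT2B had them above, each with p = 0.1 by the exact permutation test. That is 3 of the 8 genes lower, against 16.6% of all 15217 genes, and 1 higher, against 16.2%. METTL16 (p = 0.8), AHCY (p = 0.9), MTRR (p = 0.2) and CBS (p = 0.9) overlapped in the same exact permutation test. In TPM, AHCYL1, AHCYL2 and MTR were again lower without overlap.

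Between genes, levels were compared per length, in TPM. In NC, AHCY was the highest at 224 ± 13.3 TPM (mean ± SD, n = 3), followed by MAT2A at 78.0 ± 20.8 and AHCYL1 at 55.5 ± 4.48. MAT2B (41.1 ± 0.904 TPM) and CBS (38.5 ± 4.29 TPM) came next and their NC ranges overlapped. MTRR (21.5 ± 1.61 TPM) and METTL16 (18.1 ± 2.46 TPM) overlapped as well. AHCYL2 was at 12.1 ± 1.37 TPM and MTR was the lowest at 7.95 ± 0.538 TPM. In SiCIRBP the means were 218 ± 54.8 TPM for AHCY, 128 ± 18.3 for MAT2A, 5.36 ± 0.991 for AHCYL2 and 4.23 ± 0.843 for MTR.

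The genes around the cycle were then examined in 8 lists with 97 genes, of which 89 were tested over the 4 libraries. Of these, 10 rose and 12 fell, with a median log2 fold change of 0.02 against -0.00 over all 15421 genes. The list shares, 10 and 12 of 89, and the counts of each list can be read against the 9.62% and 9.76% of all genes given above. Groups that did not overlap over 6 libraries can be read against the 16.2% of all genes higher and 16.6% lower without overlap. Of the 89 genes, 19 were higher and 10 lower in this way. Over 6 libraries, none of the 89 passed in edgeR, as no gene did. In the account of the lists, log2 fold changes and adjusted p are from the fit over 4 libraries, while values per library and ranges cover all 6.

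Of the other enzymes of the cycle, MAT1A and BHMT, known from liver, had at most 0.0777 CPM in any library and BHMT2 at most 0.210 CPM, and none was tested. BMT2 (SAMTOR), a SAM sensor upstream of mTORC1, fell by 0.68 ± 0.18 on the log2 scale (adjusted p = 0.0458, edgeR). It was at 7.85, 7.92 and 9.35 CPM in NC and 5.00, 3.03 and 5.81 CPM in SiCIRBP, without overlap. ADK, which clears adenosine, and the mitochondrial SAM carrier SLC25A26 did not pass, at log2 fold changes of -0.15 and -0.13. The median of the 3 was -0.15.

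Among 17 genes of RNA methylation and MAT2A transcript processing, 2 rose, 1 fell and 14 did not pass, with a median of 0.05. Over 6 libraries, 6 of the 17 were higher and 1 lower without overlap. MEPCE, which caps the 7SK RNA, rose by 0.42 ± 0.09 (adjusted p = 0.0223, edgeR). CPSF6, a subunit of the cleavage factor that selects polyadenylation sites, rose by 0.35 ± 0.09 (adjusted p = 0.0359). ZC3H13, a part of the m6A writer complex around METTL3, fell by 0.36 ± 0.10 (adjusted p = 0.0462). YTHDC1, the nuclear m6A reader, and NUDT21, the partner of CPSF6, were at log2 fold changes of 0.09 (adjusted p = 0.508) and -0.14 (adjusted p = 0.245).

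In the folate cycle, which supplies the methyl group to MTR, 4 of 18 tested genes fell, against 9.76% of all genes. None rose, 14 did not pass and the median was -0.11. Over 6 libraries, 4 of the 18 were higher and 3 lower without overlap. MTHFD1L, the mitochondrial formate producer, was at 173, 226 and 252 CPM in NC and 158, 111 and 147 CPM in SiCIRBP, a log2 fold change of -0.65 ± 0.09 (adjusted p = 0.00878, edgeR). SHMT2, the mitochondrial serine hydroxymethyltransferase, was at 359, 426 and 458 CPM in NC and 338, 330 and 317 CPM in SiCIRBP, a log2 fold change of -0.43 ± 0.08 (adjusted p = 0.0178). In both, every SiCIRBP library was below every NC library. MTHFD2, the mitochondrial dehydrogenase of the same route, fell by 0.40 ± 0.10 (adjusted p = 0.0407), and FPGS, which adds glutamates to folates, fell by 0.36 ± 0.08 (adjusted p = 0.0269). In these last 2 genes the CPM of the groups overlapped over 6 libraries. MTHFD2 was at 289 CPM in NC_1, below SiCIRBP_1 at 318 and SiCIRBP_2 at 374 CPM, and FPGS was at 108 CPM in NC_1, below SiCIRBP_2 at 117 CPM.

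Of 9 genes of cobalamin handling, the cofactor of MTR, 2 fell, against 9.76% of all genes, and 7 did not pass. The median was -0.03. MMAA and MMUT, the genes that fell, serve methylmalonyl-CoA mutase, the other cobalamin enzyme, and not MTR. MMAA was at log2 -1.16 ± 0.26 (adjusted p = 0.0292, edgeR) on 40 to 97 counts per library, and MMUT at -0.53 ± 0.15 (adjusted p = 0.0489), and NC_1 overlapped with SiCIRBP in both.

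In transsulfuration and glutathione synthesis, 1 of 11 genes rose, with a median of 0.02. That gene was CDO1, cysteine dioxygenase, at log2 1.18 ± 0.31 (adjusted p = 0.0439, edgeR) on only 28 to 92 counts per library. CTH, the enzyme after CBS, was at -0.76 (adjusted p = 0.138).

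In polyamine synthesis and methionine salvage, which take up SAM and return methionine, 4 of 15 genes rose, against 9.62% of all genes. None fell and the median was 0.08. Over 6 libraries, 5 of the 15 were higher and 0 lower without overlap. AMD1, which decarboxylates SAM for polyamine synthesis, was at 54.6, 44.4 and 40.5 CPM in NC and 67.5, 102 and 92.5 CPM in SiCIRBP, a log2 fold change of 0.91 ± 0.16 (adjusted p = 0.0146, edgeR). OAZ2 was at 110, 80.9 and 75.3 CPM in NC and 135, 164 and 131 CPM in SiCIRBP, a log2 fold change of 0.77 ± 0.08 (adjusted p = 0.00585). In both genes the groups did not overlap. OAZ1 rose by 0.31 ± 0.08 (adjusted p = 0.0367), and like OAZ2 it encodes an antizyme, an inhibitor of ornithine decarboxylase. MRI1, an isomerase of the salvage route, rose by 0.44 ± 0.12 (adjusted p = 0.0483), with SiCIRBP_2 at 28.5 CPM below every NC library. ODC1, ornithine decarboxylase, was at -0.04 (adjusted p = 0.815).

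Of 8 tested transporters of methionine and related amino acids, 2 rose and 3 fell, against 9.62% and 9.76% of all genes. The median was -0.04. SLC43A2 rose by 0.59 ± 0.11 (adjusted p = 0.0164, edgeR) and SLC7A6 by 0.48 ± 0.08 (adjusted p = 0.0137). In SiCIRBP_2 both were below every NC library, at 29.8 and 62.0 CPM. In TPM, SLC7A6 was at a ratio of 0.928 between the means of the 4 libraries, on the other side of 1 from its CPM ratio of 1.40. Its assigned length in SiCIRBP was 1.40 times that in NC, which did not pass (adjusted p = 0.252, limma). SLC43A1 fell by 1.03 ± 0.21 (adjusted p = 0.0229) and SLC38A1 by 0.39 ± 0.08 (adjusted p = 0.0198). The fifth, named after its value was seen, was SLC3A2, the heavy chain of the large neutral amino acid transporters, which fell by 0.56 ± 0.13 (adjusted p = 0.0291). NC_1, at 216 CPM, was below every SiCIRBP library for SLC3A2 (246 to 319 CPM), and the log2 fold change over 6 libraries was -0.24 (adjusted p = 0.566). Among 8 tested small-molecule methyltransferases, ICMT rose by 0.47 and NNMT, which methylates nicotinamide with SAM, fell by 0.51, and the median was -0.06. NNMT in SiCIRBP_2, at 171 CPM, was above every NC library, and its log2 fold change over 6 libraries was -0.18. ICMT in SiCIRBP_2, at 179 CPM, lay within the NC range of 167 to 187 CPM.

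**Figure D4:**
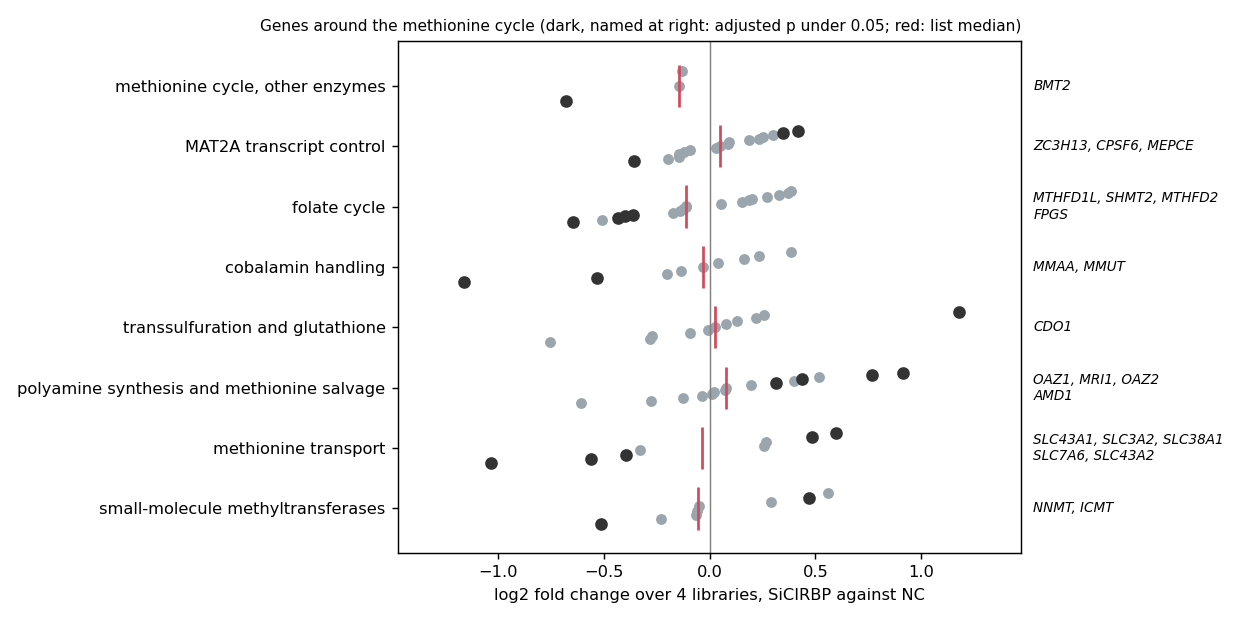
log2 fold change over 4 libraries (x axis) of the 89 tested genes in 8 lists around the methionine cycle (rows); dark points have an adjusted p under 0.05 and are named at the right, grey points did not pass, and red lines are list medians, between -0.15 and 0.08. The folate row holds dark points on the lower side alone and the polyamine and salvage row on the higher side alone.

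The genes whose pattern over the 6 libraries was most like that of MAT2A were PLAGL2, BOLA3, RBMX, CHTF8 and CWF19L1, with Pearson correlations of log2(CPM + 1) from 0.992 to 0.997. The most opposite were SIK1B, ZNF48, NR4A1 and PHLDB2, from -0.995 to -0.998. These are the extremes of 15217 genes over only 6 points that share libraries, and they share with MAT2A the position of NC_1 between the groups. CHTF8 was the nearest to MAT2A in size, at 72.4, 43.5 and 42.3 CPM in NC and 96.2, 94.7 and 102 CPM in SiCIRBP. NR4A1, an immediate early gene, was at 15.9, 32.0 and 32.5 CPM in NC and 8.87, 10.4 and 7.55 CPM in SiCIRBP. None of the 8 other genes of the cycle was among these 9.

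**Figure D5:**
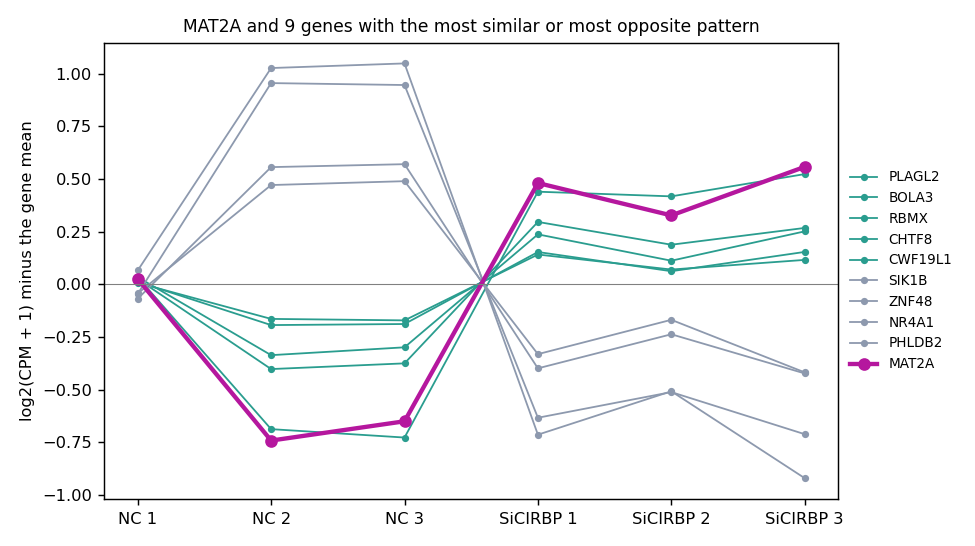
log2(CPM + 1) minus the mean of each gene (y axis) in the 6 libraries (x axis) for MAT2A (thick line), the 5 genes with the highest correlation (green) and the 4 with the lowest (grey). In all 10 genes NC_1 lies between NC_2 and NC_3 on one side and the 3 SiCIRBP libraries on the other.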

How the data were processed

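RNA-seq of 6 libraries of a human cardiomyocyte line was analysed, with groups and replicate numbers taken from the labels. The authors deposited an estimated count per gene and library, not normalized and not whole for 12.7% of the values, and a TPM value scaled by assigned transcript length. The authors' deposited tables also hold their own comparisons (a ratio or fold change, log2 fold changes, p-values), which were not used. The submitters' processing notes name fastp, HISAT, RSEM and hg38, without versions or roles. Whether libraries and counting were stranded is not given in the sources used here.

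Counts were rounded and tested in edgeR 4.0.16 (R 4.3.3) with TMM scaling, filterByExpr and the quasi-likelihood test, and an adjusted p (Benjamini-Hochberg over all genes tested) under 0.05 was called. The main fit held the 4 libraries the study compared, and a second all 6. Assigned lengths were tested with limma 3.58.1 on log2(count/TPM), centred on the median gene of each library, for genes with at least 10 counts and 1 TPM. Permutation tests used log2(CPM + 1) and scipy 1.17.1. Gene models and 31-base words came from GENCODE 29. Nothing says that replicates were separate cultures, so p-values measure the spread between these libraries, which may be technical.

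On simulated data with 200 genes changed by log2 1.5, edgeR recovered 95.0% over the 4 libraries (15144 genes) and 97.5% over 6 (15029 genes). For 200 genes with a length changed by log2 0.5 limma recovered 100% of them among 12153 genes. These simulations gave every gene the same spread between libraries and held no discrepant library. The recovered shares therefore do not measure how many real changes these fits could find. Totals of 25726259 to 29919566 counts give 448 to 12439 counts per library for the 9 genes. NC_2 and NC_3 differed by less than counting error for 5 of the 9 genes, and SiCIRBP_1 and SiCIRBP_3 for 1.

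The 9 genes and the 8 lists were chosen with earlier results of these data known. The genes named are the 9, CIRBP, up to 4 genes per list with the smallest p among those called, the 5 most and the 5 least correlated with MAT2A, and genes that share transcript words with the 9. Some of these genes are not reported here. Alternatives were RLE scaling, no filter, at least 10 counts in every library, DESeq2 1.42.0, other pseudocounts or TPM, a stricter length filter, the replicate block and each library left out. Summing CBS with CBSL was chosen after seeing the data.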

Additional observations from a re-analysis of the deposited data

How the results depend on the processing

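Over the 4 libraries, 2 of the 8 genes beside MAT2A passed, and 2 or 3 did under RLE scaling, no filter, at least 10 counts or DESeq2. None passed over all 6 libraries (0). Leaving out a library gave 0 to 6, with 0 without NC_2 or NC_3 and 6 without SiCIRBP_1. The lone library of a group is then assumed to vary like the other group, and NC_2 and NC_3 lie very close to each other. With a library left out, the log2 fold change over 4 libraries crossed 0 for AHCY (-0.18 to 0.36), CBS (-0.29 to 0.45) and MTRR (-0.0876 to 0.0363). AHCY and CBS passed at both ends, without SiCIRBP_1 and without SiCIRBP_3. Over 6 it crossed 0 for METTL16 (-0.32 to 0.11), AHCY (-0.0916 to 0.20) and CBS (-0.42 to 0.23). Over 6 libraries, 0 passed in edgeR, against 2 with no filter and 2 with DESeq2 (AHCYL2 and MTR), and 0 to 2 with a library left out. In the lists, 10 genes rose and 12 fell over 4 libraries, 0 and 0 over 6, and 0 to 26 and 0 to 26 with a library left out. The cause of these changes was not tested. With all 6 libraries in place of 4, CBS was at log2 -0.0216, and assigned length, with or without the replicate block, was at log2 -0.12 for MTRR and 0.0044 for CBS. With a library left out, length crossed 0 for MTRR (-0.0596 to 0.15) and MAT2B (-0.0394 to 0.0022). Assigned length gave 0 calls and the permutation test 3 or 4 separated genes in every setting run. Of the tested values for single genes, 186 kept direction and side of the threshold, 12 gained and 6 lost it, and 19 changed sign. The log2 fold change of MAT2A, given with no test, stayed above 0 in all settings run. Since MAT2A was chosen by its rise in these libraries, that is no support for the rise.

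Labels number the libraries 1 to 3 in both groups, but same-numbered libraries did not deviate together (correlations of -0.118, 0.006 and -0.026), so they were not treated as pairs. With the replicate block over 6 libraries, 0 of the 8 genes passed, with AHCYL2 at log2 -1.002 (adjusted p = 0.130, edgeR) and MTR at -0.70 (adjusted p = 0.1495). Over the 4 libraries no paired analysis was possible because the groups share only number 3.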
